A study of Rattus norvegicus with 24 samples.

Results

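The genes covered here encode the light chains of sarcomeric myosin and the kinase that phosphorylates the fast regulatory chain in skeletal muscle. They were picked by gene symbol, and all 6 (Myl1, Mylpf, Myl2, Myl3, Myl4 and Mylk2) were found among the 15273 gene symbols of the transcript table, where they were represented by 7 of its 20027 transcripts. Values were summed per gene and were also read for each transcript. All 6 genes and all 7 transcripts passed the filter on low values and were tested.

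In this experiment the left tibialis anterior of male Wistar rats was loaded once a day through an implanted pulse generator that drove the common peroneal nerve, so that the dorsiflexors contracted against the plantarflexors. The right tibialis anterior of the same rat received no stimulation. Muscles were collected an hour after the final session, so that in trained muscle the response to that session and the length of training cannot be told apart. There were 12 rats, with 3 each at 2, 10, 20 and 30 days, and hence 24 muscles. Each trained group of 3 was set against all 12 contralateral muscles, and the contralateral muscle of the same rat was used as a second reference.

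Each sarcomeric myosin head binds an essential and a regulatory light chain. In fast fibres these are products of Myl1 and Mylpf, in slow fibres they are Myl3 and Myl2, and Myl4 encodes the essential chain of embryonic and atrial muscle. Mylk2 encodes the calcium- and calmodulin-dependent kinase that phosphorylates the regulatory chain during contraction.

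The values had 1 total in every sample and were treated as TPM-type. Scaling for transcript length was not tested, and each level, ratio or share that sets genes or transcripts side by side rests on it. The values were rescaled per muscle by a median-of-ratios factor. They keep no sequencing depth, so none is given here. The tissue was sequenced in bulk, in which fewer cells of a type and less RNA per cell cannot be told apart. Log2 fold changes were taken from limma on log2 of the value plus 1, which understates the change of genes with low values, and adjusted p-values are over all 11196 tested genes unless transcripts are named.

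In the 12 contralateral muscles, the mean level was 10248 ± 890 (SD) for Myl1, 8660 ± 905 for Mylpf, 822 ± 242 for Myl3, 384 ± 49.0 for Mylk2, 35.8 ± 11 for Myl2 and 8.61 ± 2.65 for Myl4. This order from highest to lowest was found in each of the 12 contralateral and in each of the 12 trained muscles. Mean Myl1 was 1.18 times mean Mylpf, whereas mean Mylpf was 10.5 times mean Myl3 and mean Mylk2 was 10.7 times mean Myl2.

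At 2 days 2 of the 6 members passed the test, with 28.9% of all tested genes passing. The count was 3 of 6 at 10 days, where again 28.9% of all genes passed, 1 of 6 at 20 days (21.4% of all genes) and 1 of 6 at 30 days (20.6%). By transcript, 1 of 7 passed at 2 days against 22.9% of the 13452 tested transcripts, and 2 of 7 passed at 10 days against 22.8%. At 20 days 1 of 7 transcripts passed, with 16.6% of all transcripts passing, and at 30 days 1 of 7, with 16%. Over all tested genes the median change, in log2 and in time order, was -0.01, -0.03, -0.03 and -0.01, beside -0.52, -0.16, -0.19 and -0.14 for the 6 members.

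The kinase gene Mylk2 lies on chromosome 3 of Rnor_6.0, plus strand, at chr3:148386189-148399501, with the single transcript Mylk2-201. Its level in the 12 contralateral muscles ran from 315 to 453 with a median of 380. In trained muscle it was 298, 195 and 242 at 2 days and 145, 171 and 155 at 10 days. It was 117, 135 and 96.5 at 20 days and 119, 95.6 and 105 at 30 days. All 12 trained muscles thus lay below the lowest contralateral muscle, and each lay below the contralateral muscle of its own rat.

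Mylk2 fell at every time point. At 2 days its log2 fold change was -0.66 (SE 0.13, adjusted p 0.000402 by limma), with 3 of 3 trained muscles lower. At 10 days it was -1.28 (SE 0.13, adjusted p 6.06e-08), at 20 days -1.72 (SE 0.13, adjusted p 9.15e-10) and at 30 days -1.84 (SE 0.13, adjusted p 9.15e-10), each time in 3 of 3 muscles. The mean of the trained muscles was 63.8% of the contralateral mean on day 2, then 40.9%, 30.3% and 27.7% at the later times. Ranked by log2 fold change among 11196 genes, Mylk2 was at places 355, 33, 10 and 13 from the lowest in time order. The share of all tested genes with all 3 trained muscles below all 12 contralateral muscles was 6.18%, 8.15%, 4.81% and 6.08% in time order, and Mylk2 was the 1 of 6 members in that class at each time. In the gene-level table the call at 2 days was lost (-0.46, adjusted p 0.0781, with adjusted p from 0.000268 to 0.0781 over the 9 other settings).

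**Figure D1:**
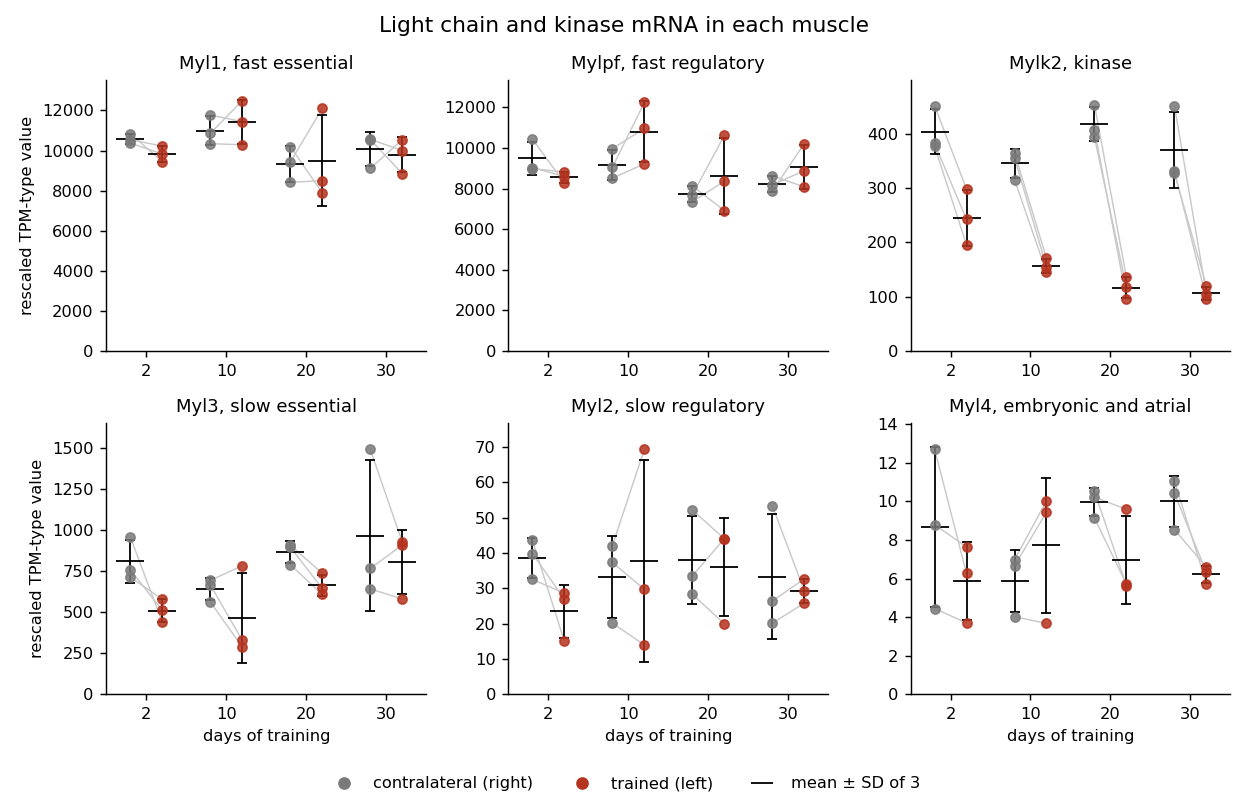
Level of each of the 6 genes (rescaled value, linear axis from 0) in contralateral (grey) and trained (red) muscles by days of training, with grey lines joining the muscles of a rat and black bars for the mean ± SD of 3 muscles. Mylk2 was 315 to 453 in contralateral muscle and 95.6 to 298 in trained muscle, without overlap, while the ranges of the other 5 genes overlapped.

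From highest to lowest, mean Mylk2 was 384 ± 49.0 (SD, n = 12) in contralateral muscle, 245 ± 51.5 (n = 3) in the trained group of day 2, 157 ± 12.8 in that of day 10, 116 ± 19.4 in that of day 20 and 107 ± 11.8 in that of day 30. The trained muscles at 10 days were lower than those at 2 days by limma (log2 difference -0.62, SE 0.16, adjusted p 0.0454). This step was 1 of 6 members passing, against 1.93% of all genes, and it passed in 3 of 8 other settings (adjusted p 0.0351 to 0.532). It failed with the rat as a block (-0.40, adjusted p 0.532), in the gene-level table (0.323), with the values as deposited (0.161), with a pseudocount of 0.1 (0.0602) and with the transcript of highest mean (0.0504), and as a transcript it did not pass either (0.0668). It also failed after any of 5 trained muscles was left out, namely replicates 1 and 3 at 2 days (adjusted p 0.126 and 0.135) and replicates 1, 2 and 3 at 10 days (0.164, 0.0607 and 0.119). Between 2 and 30 days Mylk2 fell further (-1.18, SE 0.16, adjusted p 5.53e-05 by limma), as 1 of 6 members against 15% of all genes. This later difference passed in all 8 other settings and with each muscle left out.

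From 10 to 20 days the Mylk2 difference of -0.44 (SE 0.16, adjusted p 0.334) did not pass. From 20 to 30 days it was -0.12 (SE 0.16, adjusted p 0.904), less than the spread of either group. By limma 0 of 6 members passed from 10 to 20 days, where 0.170% of all genes passed, and 4 of 6 had an unadjusted p under 0.05, as did 9.38% of all genes. In the gene-level table, 1 of 8 other settings, Myl1 (-0.61, adjusted p 0.0310) and Mylpf (-0.64, adjusted p 0.0317) passed in this step. On the rescaled values 0 of 6 passed from 20 to 30 days, where 0.0357% of all genes passed, and 0 of 6 had an unadjusted p under 0.05, against 6.81% of all genes.

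The fast regulatory chain gene Mylpf lies at chr1:198655742-198658583, plus strand, with the single transcript Mylpf-201. Contralateral levels ran from 7363 to 10439 with a median of 8581. Trained muscles held 8821, 8281 and 8597 at 2 days and 10967, 12248 and 9221 at 10 days. They held 10620, 8362 and 6917 at 20 days and 8081, 8885 and 10222 at 30 days. At 10 days 2 of 3 trained muscles were above all 12 contralateral muscles and 3 of 3 were above that of their own rat. At 20 days 1 was above and 1 below all 12, and at 2 and 30 days all lay within the contralateral range. Against the muscle of their own rat, 3 of 3 were below at 2 days, and 2 of 3 were above at 20 and at 30 days.

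Mylpf rose at 10 days by a log2 fold change of 0.32 (SE 0.12, adjusted p 0.0421 by limma). The call was lost with the rat as a block (0.23, adjusted p 0.294, within a range of 0.00187 to 0.294 over 9 other settings), and when trained replicate 1 (0.30, adjusted p 0.142) or trained replicate 2 (0.22, adjusted p 0.263) was left out. As a transcript it did not pass either (adjusted p 0.0558 over 13452 transcripts). It did not pass at 2 days (-0.01, adjusted p 0.962), 20 days (-0.02, adjusted p 0.930) or 30 days (0.07, adjusted p 0.741). At 30 days the sign was negative in the gene-level table, where -0.39 passed (adjusted p 0.0118) against a median of -0.35 for all genes of that table. By time point, the 3 contralateral muscles had means of 9489 ± 823, 9180 ± 733, 7731 ± 387 and 8238 ± 381, which were not compared by a test.

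The fast essential chain gene Myl1 lies on chromosome 9, minus strand, and its transcripts share their last base but start at different promoters. Myl1-201, at chr9:73937823-73958480, encodes the longer chain MLC1f, and Myl1-202, at chr9:73937823-73948583, encodes the shorter chain MLC3f from a start 9897 bases further along the gene. Summed Myl1 ran from 8413 to 11771 in contralateral muscle (median 10455). The trained muscles held 9448 to 10222 at 2 days, 10287 to 12484 at 10 days, 7898 to 12108 at 20 days and 8855 to 10543 at 30 days. At 10 days 1 of 3 muscles was above all 12 contralateral muscles, at 20 days 1 was above and 1 below, and all other trained muscles lay within the contralateral range. The log2 fold changes were -0.05, 0.15, -0.13 and -0.06 in time order, with adjusted p from 0.310 to 0.743, so that Myl1 passed at 0 of 4 time points by limma and also had an unadjusted p under 0.05 at 0 of 4. Scaling mattered for this gene. With the values as deposited it passed at 10 days (0.28, adjusted p 0.0442) and, downward, at 30 days (-0.29, adjusted p 0.0334), where the median of all genes was itself -0.18. The adjusted p for Myl1 spanned 0.0123 to 0.844 at 10 days and 0.00130 to 0.898 at 30 days over 9 other settings. Without trained replicate 1 it also passed at 20 days (-0.32, adjusted p 0.0479).

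The MLC1f transcript Myl1-201 ran from 4634 to 6715 in contralateral muscle (median 5679) and was 7632, 8144 and 5957 in trained muscle at 10 days. Its log2 fold change there was 0.35 (SE 0.13, adjusted p 0.0519 over all transcripts by limma), with 2 of 3 muscles above all 12 contralateral ones, and did not pass. It passed with the values as deposited (0.47, adjusted p 0.00833) and without trained replicate 3 (0.48, adjusted p 0.0217), in a range of adjusted p up to 0.531 over 7 other settings. At 2, 20 and 30 days Myl1-201 was at 0.04, -0.12 and -0.07. The MLC3f transcript Myl1-202 ran from 3779 to 5379 in contralateral muscle (median 4477), and its log2 fold changes of -0.17, -0.14, -0.14 and -0.05 did not pass (adjusted p 0.269 to 0.802). It passed in 1 of 7 other settings at 30 days, the values as deposited (-0.28, adjusted p 0.0326, in a range up to 0.855).

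The share of MLC1f in summed Myl1 was 50.4% to 60.3% in contralateral muscle (median 55.8%). It was 58.6%, 56.3% and 61.6% at 2 days and 66.7%, 65.2% and 57.9% at 10 days, so that 1 of 3 muscles at 2 days and 2 of 3 at 10 days lay above the contralateral range. At 20 days it was 56.5%, 56.7% and 53.9%, and at 30 days 53.1%, 55.5% and 56.3%, all within that range. This share was described per muscle and was not tested, and scaling does not alter it.

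**Figure D2:**
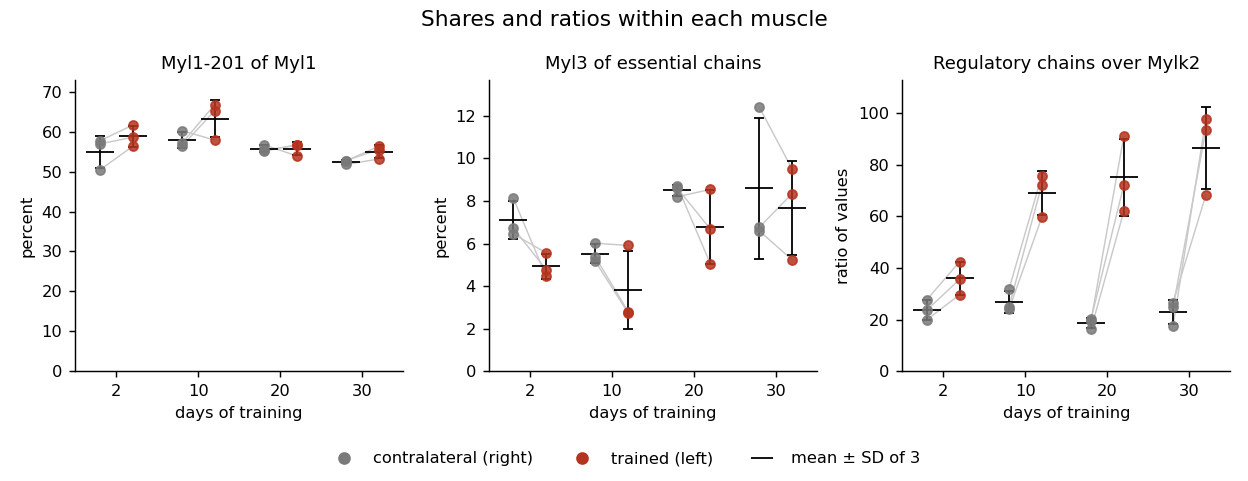
Share of Myl1-201 in Myl1 (percent), share of Myl3 in the essential chains (percent) and ratio of the regulatory chains to Mylk2, in contralateral (grey) and trained (red) muscles by days of training, with lines joining the muscles of a rat and bars for the mean ± SD of 3. The ratio was 16.3 to 31.7 in contralateral muscle and 59.5 to 97.4 in trained muscle from 10 days on.

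Promoter sequence was available from RefSeq on GRCr8, and 3 of the 6 members were matched there (Myl1, Myl3 and Myl4). Each promoter covers 250 bases before the transcription start and 50 after it. Those of Myl1 and Myl3 are printed 5′ to 3′ on the strand of the gene, and that of Myl4, with E-boxes 240, 119 and 77 bases before its start, is not printed. Capitals mark matches, on either strand, to the E-box CANNTG, the MCAT element CATTCC, the MEF2 site and the CArG box. No matches overlapped. Among 33469 promoters of this length an E-box was found in 72.1%, an MCAT element in 14.2%, a MEF2 site in 0.565% and a CArG box in 1.64%. A match describes the sequence and does not show that a factor binds.

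The MLC1f promoter of Myl1 lies at chr9:75907647-75907946 on the minus strand of GRCr8 and holds 1 E-box, 92 bases before the start.

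Myl1 MLC1f promoter: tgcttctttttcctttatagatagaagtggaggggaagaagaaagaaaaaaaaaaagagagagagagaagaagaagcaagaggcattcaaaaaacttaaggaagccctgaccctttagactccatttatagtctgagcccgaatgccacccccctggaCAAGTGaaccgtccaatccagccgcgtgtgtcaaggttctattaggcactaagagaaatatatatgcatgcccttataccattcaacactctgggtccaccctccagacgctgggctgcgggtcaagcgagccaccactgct

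The MLC3f promoter of Myl1 lies at chr9:75897750-75898049 on the minus strand, with its start 9897 bases from the other one on GRCr8 as well. It holds a MEF2 site 176 bases and an E-box 99 bases before the start.

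Myl1 MLC3f promoter: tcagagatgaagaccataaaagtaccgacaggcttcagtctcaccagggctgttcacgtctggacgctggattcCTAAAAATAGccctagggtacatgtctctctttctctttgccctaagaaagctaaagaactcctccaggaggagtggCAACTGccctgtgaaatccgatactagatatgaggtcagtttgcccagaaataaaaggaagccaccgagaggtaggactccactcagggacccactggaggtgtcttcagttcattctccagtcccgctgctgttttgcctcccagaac

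The slow essential chain gene Myl3 lies at chr8:119030875-119036996 of Rnor_6.0, plus strand, with the single transcript Myl3-201. Contralateral levels ran from 563 to 1494 with a median of 764, and the highest was that of replicate 1 at 30 days, a library with 43.7% mitochondrial mRNA against 27.8% to 34.6% in the other 11 contralateral muscles. In trained muscle this share was 24.9% to 28.5% on day 2, 23.4% to 27.4% on day 10, 31.1% to 35.5% on day 20 and 39.9% to 43.9% on day 30, and its part in the results was not tested. Trained muscles held 513, 440 and 580 at 2 days and 330, 785 and 289 at 10 days. They held 646, 609 and 738 at 20 days and 929, 911 and 582 at 30 days. At 2 and at 10 days 2 of 3 trained muscles were below all 12 contralateral muscles, while at 20 and 30 days all lay within the contralateral range.

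Myl3 fell at 2 days by 0.65 on the log2 scale (SE 0.24, adjusted p 0.0440 by limma), with 3 of 3 muscles below the muscle of their own rat. This call rested close to the threshold. It was lost with the rat as a block (-0.66, adjusted p 0.0521, within a range of 0.0405 to 0.130 over 9 other settings). It was also lost without trained replicate 1 (adjusted p 0.0877), replicate 2 (0.235) or replicate 3 (0.0710), and as a transcript Myl3 did not pass at 2 days (0.0586). At 10 days Myl3 fell by 0.92 (SE 0.24, adjusted p 0.00510), with 2 of 3 muscles below their own contralateral muscle. That call was lost with the rat as a block (-0.60, adjusted p 0.0796, within a range of 0.00418 to 0.183 over 9 other settings), without trained replicate 1 (-0.74, adjusted p 0.0676) and without trained replicate 3 (-0.65, adjusted p 0.0841). Later Myl3 did not pass, at -0.27 on day 20 (adjusted p 0.478) and -0.01 on day 30 (adjusted p 0.981), although 3 of 3 muscles on day 20 and 2 of 3 on day 30 were below that of their own rat. At 30 days it passed in 1 of 9 other settings, the gene-level table (-0.47, adjusted p 0.0452, in a range up to 0.984). Of the 4 differences between trained groups that were tested, 0 passed for Myl3 by limma, among them 0.65 from 10 to 20 days (adjusted p 0.520) and 0.64 from 2 to 30 days (adjusted p 0.160).

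The Myl3 promoter lies at chr8:119616844-119617143 on the plus strand of GRCr8. It holds an E-box 201 bases, MCAT elements 189 and 161 bases, and a CArG box 97 bases before the start.

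Myl3 promoter: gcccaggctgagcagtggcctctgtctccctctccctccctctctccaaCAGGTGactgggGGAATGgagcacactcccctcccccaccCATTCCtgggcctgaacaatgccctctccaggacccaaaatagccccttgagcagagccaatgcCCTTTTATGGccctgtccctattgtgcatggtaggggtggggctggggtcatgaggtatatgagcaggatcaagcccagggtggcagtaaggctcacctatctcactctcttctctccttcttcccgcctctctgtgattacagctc

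The slow regulatory chain gene Myl2 (chr12:39951987-39958239, minus strand) ran from 20.2 to 53.4 in contralateral muscle and from 14 to 69.4 in trained muscle. Its log2 fold changes of -0.57, -0.14, -0.01 and -0.22 in time order carried an SE of 0.33 each. By limma 0 of 4 passed or had an unadjusted p under 0.05 (adjusted p 0.202 at 2 days). With the rat as a block in limma, Myl2 at 2 days was at -0.73 (unadjusted p 0.0251, adjusted p 0.0890) and did not pass. At that time 3 of 3 muscles were below that of their own rat. The widest spread was at 10 days, with 29.7, 69.4 and 14 in the 3 trained muscles. The gene for the embryonic and atrial chain, Myl4 (chr10:92628356-92638100, plus strand), ran from 4.02 to 12.7 in contralateral muscle and from 3.68 to 10.0 in trained muscle. Its log2 fold changes of -0.47, -0.18, -0.25 and -0.36 did not pass, with adjusted p from 0.193 to 0.659. With the rat as a block Myl4 passed at 30 days (-0.60, adjusted p 0.0452, within a range up to 0.435 over 8 other settings). As a transcript it did not pass in that fit (adjusted p 0.0764). At 2 and 20 days the block fit gave -0.44 and -0.49, which did not pass (adjusted p 0.103 and 0.0790). Trained muscles below that of their own rat numbered 3 of 3 at 2, 20 and 30 days and 1 of 3 at 10 days.

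**Figure D3:**
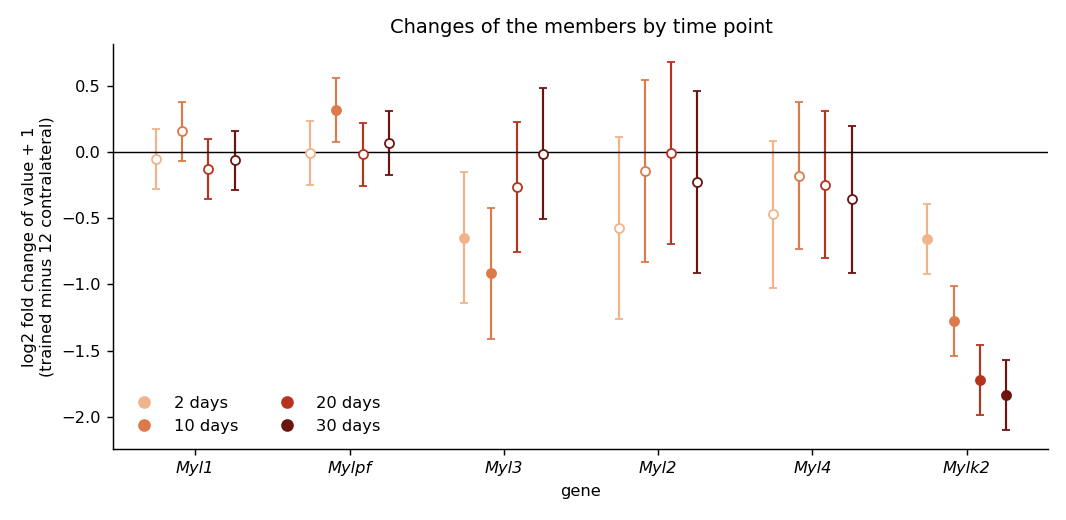
Log2 fold change of each gene in trained against the 12 contralateral muscles, with 95% confidence intervals from limma, by time point from light to dark; filled points passed at an adjusted p under 0.05. Mylk2 moved from -0.66 at 2 days to -1.84 at 30 days, and the points of Myl1, Myl2 and Myl4 are open at all 4 time points.

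Within the essential chains (Myl1, Myl3 and Myl4 summed), Myl3 made up 5.16% to 12.4% in contralateral muscle, with a median of 6.74%. Its share was 4.77%, 4.45% and 5.57% at 2 days and 2.80%, 5.91% and 2.73% at 10 days. At 20 days it was 5.06%, 6.68% and 8.54%, and at 30 days 9.49%, 8.35% and 5.23%. Thus 2 of 3 muscles were below the contralateral range at 2 and at 10 days, against 1 of 3 at 20 days and 0 of 3 at 30 days. Myl2 made up 0.237% to 0.637% of the regulatory chains (Mylpf and Myl2) in contralateral muscle and a mean of 0.273%, 0.329%, 0.429% and 0.327% in the trained groups in time order. The shares were not tested.

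The regulatory chains summed to 23.1 ± 4.51 times Mylk2 in contralateral muscle, with a range of 16.3 to 31.7. The ratio was 29.7, 42.5 and 35.6 at 2 days and 75.7, 72.2 and 59.5 at 10 days. It was 91.0, 61.9 and 72.1 at 20 days and 68.2, 93.3 and 97.4 at 30 days. From 10 days on it was above the contralateral range in all 9 trained muscles. The ratio of regulatory to essential chains was 0.785 ± 0.0472 in contralateral muscle with a maximum of 0.887. It was 0.824, 0.838 and 0.828 at 2 days and 0.933, 0.928 and 0.873 at 10 days. At 20 days it was 0.836, 0.919 and 0.805 and at 30 days 0.828, 0.817 and 0.921, so that 0, 2, 1 and 1 of 3 muscles were above that maximum in time order. In the values as deposited, the light chains together made up 3.11% ± 0.250 of the total in contralateral muscle. They made up 3.41%, 3.14% and 3.14% at 2 days, 4.08%, 4.10% and 3.47% at 10 days, 3.31%, 2.75% and 2.74% at 20 days and 2.58%, 2.52% and 2.86% at 30 days. In the contralateral muscles of each time the mean was 3.24%, 3.36%, 3.01% and 2.84% in time order. Mitochondrial mRNA counts in that total, at 27.8% to 43.7% in contralateral muscle. In trained muscle it was 23.4% to 27.4% on day 10 and 39.9% to 43.9% on day 30. Its part in these shares was not tested.

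The list of other myosin light chains held 8 genes, of which 5 were matched by symbol and 4 passed the filter, while Myl6b, Myl6l and Myl7 were not used here. Of these 4, 3, 2, 1 and 0 rose by limma in time order, and none fell. Over all 11196 tested genes 1728, 1746, 1314 and 1245 rose and 1507, 1494, 1079 and 1059 fell in time order. The counts of each list below are to be read beside these, and no list was tested as a set. The list median was 0.69, 0.55, 0.25 and 0.20 in time order, beside -0.01, -0.03, -0.03 and -0.01 for all genes. The summed level of the 5 matched genes was 221 to 309 in contralateral muscle. It was 588, 2024 and 1444 at 2 days, 670, 922 and 388 at 10 days, 348, 327 and 300 at 20 days and 298, 353 and 303 at 30 days.

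Myl12a, which encodes a regulatory light chain of non-muscle myosin, was the most abundant of these genes, at 152 to 217 in contralateral muscle. In trained muscle it reached 487, 1892 and 1331 at 2 days and 568, 819 and 262 at 10 days, all above the contralateral range. Its log2 fold change was 2.55 at 2 days (SE 0.27, adjusted p 1.22e-07) and 1.44 at 10 days (SE 0.27, adjusted p 0.000201), with 3 of 3 muscles higher each time. At 20 and 30 days the values of 0.31 and 0.34 did not pass. Myl6, the essential chain of non-muscle and smooth muscle myosin, rose by 0.76 at 2 days, 0.68 at 10 days and 0.51 at 20 days (adjusted p 0.000102, 0.000323 and 0.00612), with 3 of 3 muscles above all 12 contralateral ones each time. Myl9, the smooth muscle regulatory chain, rose at 2 days by 0.63 (adjusted p 0.0304), with 1 of 3 muscles above the contralateral range. Myl12b did not pass at any of the 4 time points, and Myl10 stood at a mean of 0.288 in contralateral muscle and was not tested.

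The list of light chain kinases, calmodulins and phosphatase subunits held 9 genes, of which 7 were matched and tested, while Mylk3 and Calm3 were not used here. Of the 7, 1 rose and 2 fell at 2 days, 1 rose and 1 fell at 10 days, and 1 fell at 20 and at 30 days with 0 rising. The list median was -0.26, 0.22, -0.02 and 0.07 in time order. Ppp1cb was the most abundant gene, and the summed level was 552 to 674 in contralateral muscle and 362 to 591 in trained muscle.

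Calm2, which encodes calmodulin, was 171 to 243 in contralateral muscle. It was 142, 132 and 147 at 2 days and 126, 125 and 123 at 10 days. At 20 days it was 126, 113 and 121 and at 30 days 120, 114 and 122, so that all 12 trained muscles were below the contralateral range. Its log2 fold change was -0.51 at 2 days (SE 0.08, adjusted p 6.19e-05), -0.68 at 10 days (adjusted p 1.36e-06), -0.74 at 20 days (adjusted p 6.98e-07) and -0.76 at 30 days (adjusted p 7.87e-07). The kinase gene Mylk4 was 32.9 to 130 in contralateral muscle and 89.1, 14.4 and 24 at 2 days, when it fell by 1.43 (SE 0.40, adjusted p 0.00852) with 2 of 3 muscles below the contralateral range. At 10, 20 and 30 days Mylk4 had means of 96.9, 88.6 and 112 and did not pass. Ppp1r12c, a regulatory subunit of myosin phosphatase, rose by 0.50 at 2 days (adjusted p 0.0176) and 0.55 at 10 days (adjusted p 0.00876), with 2 of 3 muscles above the contralateral range each time. The smooth muscle kinase gene Mylk, at a mean of 2.91 in contralateral muscle, did not pass at any of the 4 times, nor did the phosphatase genes Ppp1cb, Ppp1r12a and Ppp1r12b.

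Of 12 heavy chain genes 9 were matched and tested, without Myh1, Myh2 and Myh13. At 2 days 3 rose and 2 fell, at 10 days 4 rose and 1 fell, at 20 days 1 rose and 2 fell, and at 30 days 2 rose and 2 fell, with list medians of 0.13, 0.39, -0.19 and 0.16. The most abundant was Myh4, whose 6 transcripts mix positions of neighbouring fast heavy chain genes, and the list summed to 13933 to 17745 in contralateral and 10026 to 16269 in trained muscle. By largest change of a summed gene, Myh8 and Myh3, the neonatal and embryonic chains, rose at 10 days by 1.54 and 1.33 (adjusted p 1.27e-05 and 0.00403), and Myh9, a non-muscle chain, rose at 2 days by 1.12 (adjusted p 2.54e-05). The slow chain gene Myh7 fell at 2 days by 0.90 (adjusted p 0.0111), when Myl3 also passed, and Myh7b fell by 0.65 at 30 days (adjusted p 0.00177). Summed Myh4 changed by -0.23, -0.29, -0.54 and -0.48 in time order (adjusted p 0.0573, 0.0179, 0.000116 and 0.000539). Of its 6 transcripts 0 passed at 2 days, while the same 1 rose and the same 2 fell at each later time. The rise was 1.22, 1.04 and 1.08 (adjusted p 0.000681 or less), and the 2 that fell were at -4.52 and -4.61 on day 10, -6.17 and -6.13 on day 20 and -6.54 and -6.59 on day 30 (adjusted p 1.41e-07 or less).

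Of 9 fast sarcomere genes 8 were matched and tested, without Atp2a1. None rose, and 5, 5, 6 and 6 fell in time order, with list medians of -0.36, -0.42, -0.56 and -0.62. Of all 11196 tested genes 1507, 1494, 1079 and 1059 fell. Tnnt3 was the most abundant, and the list summed to 44826 to 56842 in contralateral and 28048 to 43746 in trained muscle. The 5 with the largest changes were Pvalb, the calcium buffer parvalbumin (-3.23 at 20 days, adjusted p 7.11e-09), the fast actinin Actn3 (-2.18 at 30 days, adjusted p 1.57e-08), Mybpc2 (-0.75 at 30 days), Casq1 (-0.67 at 30 days) and Tpm1 (-0.58 at 30 days). Within the list Tnni2 did not pass at any of the 4 times (adjusted p 0.106, 0.311, 0.113 and 0.728 by limma). Tnnc2 did not pass at 2, 10 or 20 days (adjusted p 0.365, 0.549 and 0.163) and fell at 30 days (-0.38, adjusted p 0.0146). The fast light chain genes Myl1 and Mylpf, like Tnni2, did not fall at any of the 4 times by limma on the rescaled values. In other settings Myl1 did fall at 30 days in the values as deposited and in the gene-level table and at 20 days without trained replicate 1, and Mylpf did at 30 days in the gene-level table.

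All 9 slow sarcomere genes were matched and tested. At 2 days 2 rose and 3 fell, at 10 days 2 rose, at 20 days 1 and at 30 days 1, with 0 falling from 10 days on and list medians of -0.45, -0.20, -0.03 and -0.23. Mybpc1 was the most abundant, and the list summed to 2502 to 3719 in contralateral and 2378 to 4574 in trained muscle. By largest change, Casq2 rose by 1.40 at 10 days (adjusted p 0.000271) and Actn2 by 1.22 at 10 days (adjusted p 3.76e-07). These were also the 2 that rose at 2 days. The 1 that rose at 20 and at 30 days was Actn2 (0.86 and 1.08, adjusted p 7.19e-05 and 5.33e-06 by limma), and no other gene of the list rose then. At 2 days Atp2a2, Tnnt1 and Mybpc1 fell by 0.80, 0.75 and 0.45 (adjusted p 0.0163, 0.0449 and 0.00217).

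Of 11 genes of regeneration and embryonic muscle 9 were matched and 8 tested, without Mymx and Chrng. Of these, Myf5 and Mymk passed the filter only with the trained muscles and were left out of counts and medians. Of the other 6, 3, 0, 0 and 0 rose in time order, and 0 fell, with list medians of 0.98, 0.38, -0.18 and 0.06. Myf6 was the most abundant, and the 9 matched genes summed to 97.3 to 186 in contralateral and 104 to 353 in trained muscle. At 2 days Myog rose by 1.41, Myf6 by 1.17 and Ncam1 by 0.79 (adjusted p 0.000518, 0.00103 and 0.0341). Mean Mymk was 0.180 in contralateral muscle and 0.626, 1.48, 0.642 and 0.602 in trained muscle, and mean Myf5 was 0.473 and then 1.12, 0.957, 0.819 and 0.849. The embryonic light chain gene Myl4 did not pass at these times.

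Marker lists were read for the tissue and for other cell types, beside the same counts over all tested genes. Of 8 skeletal muscle markers 7 were matched and tested, with Acta1 the most abundant and a sum of 44663 to 56070 in contralateral and 39965 to 71700 in trained muscle, and 1, 4, 2 and 1 rose and 3, 1, 2 and 1 fell in time order. Their list medians were -0.31, 0.41, 0.00 and -0.05. Of the 7 cardiac markers 4 were matched and 2 tested, with Tnnt2 the most abundant over all muscles, Myh6 the most abundant in contralateral muscle alone and a sum of 0.986 to 6.62 in contralateral and 1.37 to 8.01 in trained muscle, and 1, 1, 0 and 0 rose, with 0 falling. None of the matched markers of any list was at 0 in all muscles.

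Fibroblast markers moved at the same times as Mylk2. All 5 were matched and tested, and 4 rose at 2 days and 5 at each later time, with medians of 1.71, 1.85, 1.27 and 1.13. Their sum, led by Col3a1 over all muscles and by Dcn in contralateral muscle alone, was 74.6 to 253 in contralateral muscle with a median of 173. It was 301, 495 and 410 at 2 days, 982, 594 and 518 at 10 days, 598, 562 and 614 at 20 days and 355, 405 and 416 at 30 days. Of 5 macrophage markers all were matched and 4 tested, of which Adgre1 passed the filter only with the trained muscles. Of the other 3, 2, 3, 3 and 3 rose in time order, with medians of 1.08, 1.04, 1.05 and 1.12. The sum of all 5, led by Csf1r, was 2.13 to 6.70 in contralateral muscle with a median of 4.97. It was 7.66, 18.1 and 12.9 at 2 days, 19.5, 13.4 and 6.98 at 10 days, 11.9, 11.4 and 15.1 at 20 days and 10.8, 17 and 14 at 30 days. Their part in the result was not tested.

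All 8 smooth muscle markers were matched and tested, of which Cnn1 passed the filter only with the trained muscles. Of the other 7, 4, 3, 2 and 1 rose in time order with 0 falling, at medians of 0.63, 0.55, 0.10 and 0.23. Des, which skeletal muscle also expresses and the skeletal list also holds, led the sum of all 8. That sum was 1788 to 2592 in contralateral muscle with a median of 1884. It was 2945, 4316 and 3727 at 2 days, 3598, 4347 and 3518 at 10 days, 3449, 3583 and 1978 at 20 days and 2323, 2766 and 2341 at 30 days. Of 6 endothelial markers 5 were matched and tested, without Pecam1, and 0, 2, 2 and 1 rose and 1, 0, 0 and 0 fell, at medians of -0.26, 0.28, 0.40 and 0.22. Their sum, led by Cdh5, was 28.3 to 40.6 in contralateral and 25 to 62.2 in trained muscle. All 6 Schwann cell and nerve markers were matched and tested, and 1 rose at 2 days and 2 fell at 30 days, at medians of 0.10, 0.02, -0.10 and -0.22. Their sum, led by Pmp22, was 12.2 to 33.3 in contralateral and 14.5 to 41.4 in trained muscle. Myl9 and Mylk are in the smooth muscle list too, and the part of these cell types in the result was not tested.

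For each member that passed at 1 or more time points, the change of each trained muscle from its own contralateral muscle was set beside that of 3836 other genes with a mean of at least 10. The distance used was the root mean square of the log2 differences over the 12 rats. The genes nearest to Mylk2 were Cib2 (0.29), Prkag3 (0.30) and Glul (0.37), against 1.46 for a gene with no change. Nearest to Myl3 were Ldhb (0.25), Grtp1 (0.27) and the slow troponin gene Tnnt1 (0.29), against 0.62 for no change. Nearest to Mylpf were Tpm2 (0.14), Edf1 (0.14) and Prkaca (0.15), against 0.26 for no change. In time order the mean changes were -0.73, -1.27, -1.65 and -1.48 for Cib2 and -0.35, -1.01, -2.06 and -1.81 for Prkag3.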

How the data were processed

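RNA of the left (trained) and right (contralateral) tibialis anterior of 12 rats had been sequenced, 3 rats at each of 2, 10, 20 and 30 days, which gave 24 samples. The authors used Partek Flow to trim reads, to align them by STAR to the Rnor_6.0 build and to assign them to Ensembl transcripts. The deposited transcript table, named there as normalized counts, has the same total of 634431 in every sample, and its values were treated as TPM-type. A deposited gene-level table of 4635 genes, in units of signal scaled by the authors, was used only as an alternative, and the authors' own p-values, FDR and fold columns were not used. These tables hold no counts, so no count model was run, and they keep neither depth nor the precision it gives.

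A median-of-ratios factor (0.778 to 1.137, from 16230 transcripts above 0 in every sample) was divided out of each sample, and the transcripts of a gene symbol were summed. Genes that reached 1 in 3 or more samples were fitted with limma 3.58.1 in R 4.3.3 on log2(value + 1), with 5 groups in 1 fit, 12 contralateral muscles and 3 trained muscles per time point. Tests were two-sided, adjusted by Benjamini-Hochberg over all genes of a comparison, with a threshold of 0.05. In 3 simulated gene tables this fit recovered a share of 0.95 to 0.98 of 2-fold changes. A share of 0.0152 to 0.0616 of its calls there was false. These shares describe the simulated tables only and are not error rates for the calls in muscle. The muscles of a rat were correlated (median r 0.174), and the spread of a gene could differ between groups. Myl12a was 1236 ± 707 (SD) in trained muscle at 2 days and 183 ± 19.4 in the 12 contralateral muscles. Whether the shares hold under these conditions was not tested. Other software was Python 3.11.15 with pandas 2.3.3, numpy 2.4.6 and matplotlib 3.10.9.

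Pairs come from the labels, which name the left and right muscle of each rat. After group means were removed, the median r between muscles of a rat was 0.174 (0.0277 to 0.343, 12 pairs, across genes, which are not independent replicates), against -0.100 for muscles of different rats (24 pairs). Alternatives were the values as deposited, a pseudocount of 0.1, no filter, the rat as a replicate block, time-matched controls, an intensity trend, the transcript of highest mean, the gene-level table, leaving out contralateral replicate 1 at 30 days, and leaving out each trained muscle.

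The members and lists were chosen with earlier results of these data known. Named genes are the members and every gene of the lists of other light chains and of kinases and phosphatase. From each other list of sarcomere, heavy chain and regeneration genes, at most the 5 of largest change that passed are named. Tnni2 and Tnnc2 of the fast list, which did not pass at most times, are named as well. The 3 genes nearest to each member that passed are named too. So are the most abundant gene of a list and genes that were left out or not matched. After the results were seen 1 gene was taken out of its list for a reason other than its values, and it is not reported here. Marker lists covered skeletal muscle, smooth muscle, cardiac, endothelial, fibroblast, macrophage, and Schwann cell and nerve genes. The end of a transcript was taken as 1 base before the listed stop. Motifs were searched in RefSeq promoters of GRCr8.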

Additional observations from a re-analysis of the deposited data

Results flagged for a closer look

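Mylk2 differed between trained groups by a direct test of those groups. The pooled contralateral group drops out of this difference, which compares muscles of different rats. Mean Mylk2 in contralateral muscle was 404 at 2 days, 346 at 10 days and 370 at 30 days, and these were not compared by a test. From 2 to 10 days the log2 difference was -0.62 (SE 0.16, adjusted p 0.0454 by limma), with 298, 195 and 242 at 2 days and 145, 171 and 155 at 10 days. From 2 to 30 days it was -1.18 (SE 0.16, adjusted p 5.53e-05), with 119, 95.6 and 105 at 30 days. The earlier difference passed in 3 of 8 other settings (adjusted p 0.0351 to 0.532) and failed with the rat as a block (-0.40, adjusted p 0.532), whereas the later one passed in 8 of 8 (5.40e-06 to 0.0146).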

How the results depend on the processing

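For the members against contralateral muscle, 192 of 212 values under other settings kept their side of the threshold (15 of them with the other sign, passing in neither). Another 12 no longer passed, 7 newly passed and 1 newly passed with the other sign. Values that passed in neither setting count as kept. Among the calls, Myl3 passed in 3 of 9 other settings at 2 days and in 7 of 9 at 10 days. Mylpf passed in 6 of 9 at 10 days and Mylk2 in 8 of 9 at 2 days. With 1 trained muscle left out 64 of 72 values were kept (8 with the other sign), with 7 no longer passing and 1 newly passing. Between trained groups it was 178 of 188 (18 with the other sign), with 5 no longer passing, 4 newly passing and 1 newly passing with the other sign. With 1 muscle left out it was 139 of 144 (18 with the other sign), with 5 no longer passing. Mylk2 fell at 10, 20 and 30 days in each of these settings, at -1.34 to -1.03, -1.85 to -1.59 and -2.26 to -1.76. The Mylk2 step of 10 minus 2 days passed in 3 of 8 other settings and in 1 of 6 with a muscle left out. For the changes below the cause was not tested.

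With the values as deposited, Myl3 at 2 days no longer passed (-0.53), while Myl1 passed at 10 days (0.28), at 30 days (-0.29) and for 30 minus 2 days (-0.35). The median of all genes then moved from -0.01 to -0.18 at 30 days and, in differences between trained groups, from -0.01 to -0.27 (30 minus 2 days), from -0.01 to -0.11 (20 minus 10 days) and from 0.01 to -0.17 (30 minus 20 days). The part of passing genes that rose moved from 53.4% to 74.5% at 2 days, from 53.9% to 75.5% at 10 days and from 54.0% to 20.0% at 30 days. Counts of genes passing went from 19 to 43 between 10 and 20 days, from 4 to 9 between 20 and 30 days, and from 1677 to 3294 between 2 and 30 days.

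A pseudocount of 0.1 ended the call of Myl3 at 2 days (-0.65) and left 1 gene between 10 and 20 days and 0 between 20 and 30 days. Without the filter Myl3 at 2 days did not pass (-0.65, adjusted p 0.0585). An intensity trend ended the call of Mylpf at 10 days (0.32, adjusted p 0.0508). With the transcript of highest mean Myl1 passed at 10 days (0.35), and the mean share of Myl3 in essential chains was 12.7% in contralateral muscle and 8.08%, 5.85%, 11.5% and 13.2% in trained muscle.

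With the rat as a replicate block Myl3 did not pass at 2 days (-0.66) or 10 days (-0.60), nor Mylpf at 10 days (0.23), while Myl4 passed at 30 days (-0.60). Counts were 1377 at 30 days (from 2304), 7 between 2 and 10 days (from 216), 1 for 20 minus 10 days, 0 for 30 minus 20 days and 314 for 30 minus 2 days. With time-matched controls the same values were found for Myl3 at 2 days (-0.66) and 10 days (-0.60) and Mylpf at 10 days (0.23), none passing, and counts were 2007 at 10 days (from 3240), 1589 at 20 days (from 2393) and 1121 at 30 days. The 0 between 20 and 30 days with the block stood beside 521 genes (4.65%) at an unadjusted p under 0.05 in the limma fit with that block.

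In the gene-level table Mylpf newly passed, with the other sign, at 30 days (-0.39, adjusted p 0.0118) and between 2 and 30 days (-0.58, adjusted p 0.00387). On the rescaled values it passed in neither by limma (0.07, adjusted p 0.741, and 0.07, adjusted p 0.779). At 2 days Myl3 (-0.45) and Mylk2 (-0.46) did not pass. Myl1 passed at 10 days (0.42) and at 30 days (-0.52), and Myl3 at 30 days (-0.47). For 20 minus 10 days Myl1 (-0.61) and Mylpf (-0.64) passed, and Myl1 did for 30 minus 2 days (adjusted p 0.000819). The median of all genes there was 0.11 at 2 days, 0.12 at 10 days, -0.35 at 30 days, and -0.21, -0.27 and -0.48 in the steps of 20 minus 10, 30 minus 20 and 30 minus 2 days, and 83.3%, 85.9% and 4.52% of passing genes rose at 2, 10 and 30 days. Over the smaller number of genes in this table, counts were 1344, 1056, 729 and 3056 in time order, 70 for 10 minus 2 days, 161 for 20 minus 10 days and 3108 for 30 minus 2 days. This table has no Myl4.

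With 1 muscle left out, Myl3 at 2 days ranged from -0.74 to -0.55 and at 10 days from -1.36 to -0.65, Mylpf at 10 days from 0.22 to 0.43 and Myl1 at 20 days from -0.32 to -0.0092. Counts ranged from 1513 (without replicate 2) to 3505 at 2 days, from 2147 (without replicate 1) to 3233 at 10 days, and from 1472 (without replicate 2) to 2440 at 30 days. For steps between trained groups the count ranged from 66 to 488 (10 minus 2 days), from 2 to 95 (20 minus 10 days), from 0 to 9 (30 minus 20 days) and from 724 to 2134 (30 minus 2 days). Leaving out contralateral replicate 1 at 30 days ended none of the calls of the members. No limit set by depth was computed, since the values keep none.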
